A study of Mus musculus with 8 samples.

Results

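GMP/Neut progenitor A is 1 of 2 granulocyte-macrophage progenitor classes among mouse bone marrow cells that carried antibody barcodes. Its members are the cells that carry this name in the deposited annotation, which the authors made from RNA alone, and it is called GMP-A below. It held 3247 of 22602 annotated cells. The second class, GMP/Neut progenitor B (GMP-B), held 2528 cells, and the 18 named classes that are neither (the non-GMP classes) held 16728. Since RNA alone set the classes, the 35 surface proteins played no part in choosing the members.

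Granulocyte-macrophage progenitors (GMPs) arise from multipotent progenitors and give rise to neutrophils, monocytes and macrophages. By flow cytometry they are known as lineage-negative, c-Kit+ and Sca-1- cells with high CD16/32, the low-affinity receptors for the Fc part of IgG, and CD34, a sialomucin of early progenitors. As they mature toward neutrophils they are known to lose c-Kit and CD34 and to gain Gr1, the Ly6G and Ly6C antigens of granulocytes and monocytes, and CD11b, an integrin chain of myeloid cells.

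All cells came from male FlkSwitch mice, which carry Flk2-Cre and the mT/mG reporter on a C57Bl/6 background, so that a cell switches from Tomato to GFP once it or an ancestor has expressed the receptor Flk2. Young mice were 2 to 3 months old and Old mice 20 to 24 months. Marrow was enriched for c-Kit (CD117), depleted of cells bearing high levels of lineage antigens (Ter119, Gr-1, CD11b, B220 and the T cell antigens CD3, CD4, CD5 and CD8), sorted as CD150- or CD150+ and run in 8 libraries. Gr1-high and CD11b-high cells were thus sorted away, and the CD117 and CD150 levels were read on cells already stained with antibodies to these 2 proteins. All groups shared this genotype, and 88 GMP-A cells (2.71%) were called Egfp negative.

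The annotation places each cell in a group such as A1 or D3, with letters A to D and numbers 1 to 4. Numbers 1 and 2 are Young and 3 and 4 are Old, and the mean CD150 score was 0.163 and 0.137 in numbers 1 and 3 against 0.745 and 0.785 in numbers 2 and 4. No label ties these names to libraries or animals, so no test was run, and 4 letters cannot in any case bring a two-sided sign-flip p below about 0.13. The letters did not behave as 4 independent samples. Over the 35 proteins the mean gap in the Old minus Young difference of GMP-A was 0.0140 between letters A and B and 0.0113 between C and D, but 0.0403 to 0.0414 between a letter of A or B and 1 of C or D. Of the 35 proteins, 11 had opposite signs in these sets of letters, so values are given by letter. No barcode was shared between cell groups of 1 letter, and 1 GMP-A barcode was found in both letters A and C. How doublets were treated is not stated.

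An antibody-derived tag (ADT) is the DNA barcode of an antibody, and its count measures that protein on a cell. The level used is the deposited normalized score, a doubly logged ratio of the ADT count to the geometric mean of the ADT counts of the same cell. It has no unit, it is relative to the other antibodies on the cell, and groups are compared by differences. GMP-A was the deepest of the 3 groups, with a median of 2658 ADT counts per cell against 2027.5 in GMP-B and 1650.5 in the non-GMP classes, and RNA UMIs had medians of 48555, 34702 and 46555.5. Values were therefore also computed after every cell was randomly reduced to 1000 ADT counts, called thinned below.

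Any count of the 5 proteins given as markers of the class was found on 96.3% (CD34) to 100% (CD62L) of GMP-A cells, but also on 63.5% (CD34) to 99.9% (Gr1) of non-GMP cells, so levels are compared instead. The mean CD16/32 score was 1.03, 1.05, 1.04 and 1.05 in letters A to D. CD62L (L-selectin, a homing receptor of leukocytes) was 1.37, 1.38, 1.44 and 1.40 in the same order of letters, and CD27, a TNF receptor family member of multipotent, lymphoid and early myeloid progenitors, was 1.34, 1.36, 1.29 and 1.28. Gr1 was 0.980, 0.977, 0.929 and 0.938. CD34 was lower and split by letter, at 0.573 and 0.574 in A and B and 0.688 and 0.705 in C and D.

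By share of ADT counts the surface of GMP-A was dominated by CD44, the hyaluronan receptor, with 45.2% of all counts and a mean score of 1.78. CD48, a SLAM family receptor known to be low on stem cells, took 18.6%, CD62L 9.42%, CD27 6.61%, CD117 6.55%, Gr1 2.58% and CD16/32 2.25%, whereas CD34 took 0.715%. These shares also depend on how well each antibody binds and do not rank the proteins by copies per cell. At the low end, NK1.1 had a mean score of 0.028, CD3 of 0.057, CD150 of 0.069, Ter119 of 0.077 and the cytokine receptor CD135 (Flt3, the product of Flk2) of 0.081. CD150, CD135 and Ter119 were thus close to CD3, a T cell protein that a GMP should lack.

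**Figure D1:**
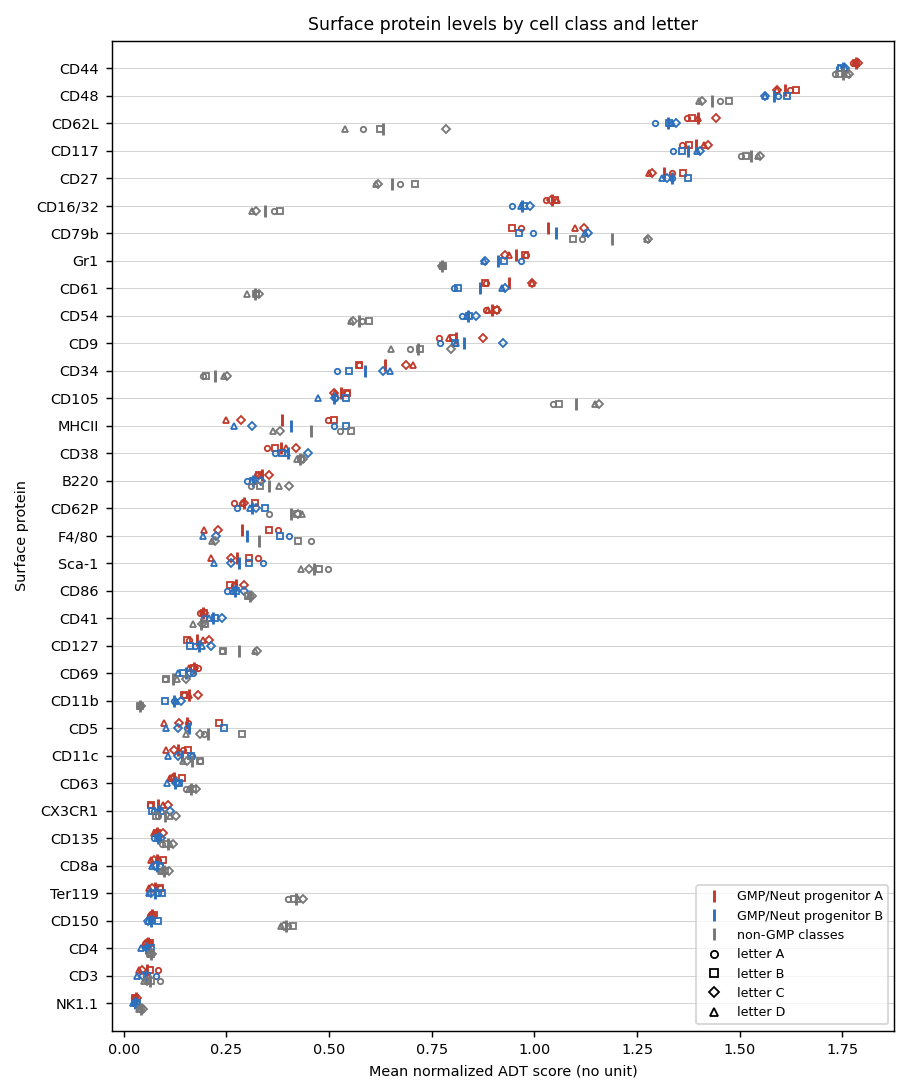
Mean normalized ADT score (horizontal axis, no unit) of 35 surface proteins (vertical axis) in GMP-A (red), GMP-B (blue) and the non-GMP classes (grey). Open symbols are letters A to D and vertical ticks are the mean of the 4 letters. Red and blue lie close together for every protein, while grey lies apart for CD62L, CD27, CD16/32, CD61, CD34, CD105, Ter119 and CD150.

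Among the 20 named classes GMP-A ranked 1 for CD16/32, Gr1, CD62L and CD69. For CD16/32 its mean over cells was 1.04, followed by GMP-B at 0.968, MPP C at 0.830 and Lymphoid C at 0.682, and it ranked 1 in each of the 4 letters, where 18 or 19 classes had enough cells. Gr1 also ranked 1 in every letter, but over a narrow range, from 0.957 in GMP-A and 0.914 in GMP-B to 0.828 in Early Ery progenitor A and 0.661 in the DC progenitor class. For CD62L the lead was small, with 1.40 against 1.39 in Lymphoid B, and GMP-A ranked 3 in letter B. CD69, an early activation antigen, led at a low level of 0.170, against 0.150 in GMP-B.

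CD34 and CD27 did not single out the class. CD34 ranked 2 at 0.632, below Lymphoid A at 0.716 and just above MPP A at 0.609, and it ranked 4 in letters C and D. CD27 ranked 8 at 1.32, with MPP B highest at 1.44. CD11b ranked 2 at 0.157, after the DC progenitor class at 0.208.

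At the other end GMP-A had the lowest Sca-1 score of the 20 classes, 0.278 against 0.282 in GMP-B and 1.19 in HSC. Sca-1 is the antigen whose absence separates myeloid from multipotent progenitors. GMP-A was also lowest for CD127 (the IL-7 receptor chain), CD5 and CD62P, at 0.177, 0.156 and 0.292. GMP-B was close to it in these, at 0.182, 0.159 and 0.312. CD117 ranked 18 at 1.39 and CD150 ranked 18 at 0.069. When thinned, CD16/32, Gr1, CD62L and CD69 again ranked 1 and Sca-1, CD127 and CD5 again ranked 20. The thinned leads of CD62L (1.3156 against 1.3151 in Lymphoid B) and CD69 (0.117 against 0.116 in GMP-B) were very small. CD62P then ranked 19, above the DC progenitor class, CD117 19, CD150 20, CD27 9, CD34 3 and CD11b 3. Over all 35 proteins the class nearest to GMP-A was GMP-B, at a Euclidean distance of 0.176 between mean profiles (0.159 when thinned), and the next was Lymphoid C at 0.767 (0.723 when thinned).

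**Figure D2:**
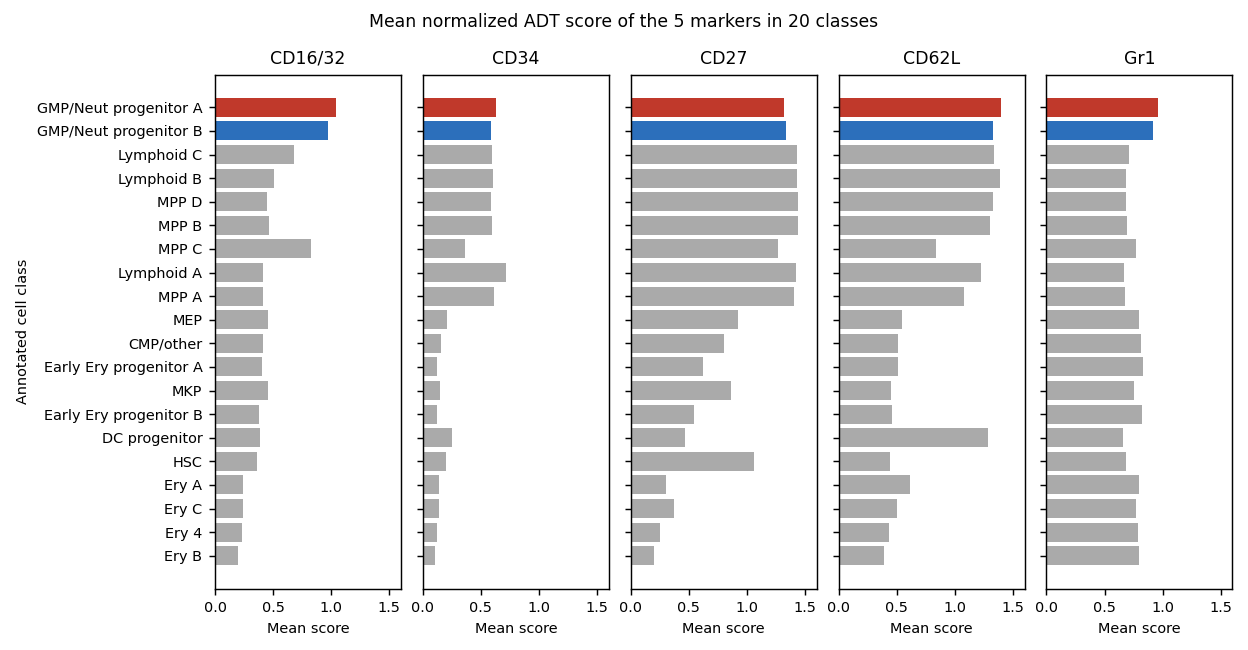
Mean normalized ADT score over cells (horizontal axis, no unit) of CD16/32, CD34, CD27, CD62L and Gr1 in the 20 named classes (vertical axis), with GMP-A in red and GMP-B in blue. Both GMP classes are highest for CD16/32 and Gr1, whereas several MPP and Lymphoid classes match or pass them for CD27, CD34 and CD62L.

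Markers of other cell types were mostly at low levels on GMP-A, apart from CD79b, CD61 and CD9. The erythroid antigen Ter119 took 0.0245% to 0.0402% of ADT counts over the letters, against 0.465% to 0.525% in the non-GMP classes. CD3, CD4 and CD8a together took 0.0658% to 0.0996%. Sca-1 and CD150, taken as stem cell markers, summed to 0.151% to 0.224%. The B cell pair B220 and CD79b took 1.45% to 2.42% and the megakaryocyte list CD41, CD61, CD9 and CD150 took 2.22% to 2.93%, against 3.68% to 6.92% and 2.73% to 3.78% in the non-GMP classes, so that the megakaryocyte ranges overlapped. In Young cells the megakaryocyte list took 2.14% to 2.68% in GMP-A and 1.91% to 3.33% in the non-GMP classes. CD79b, part of the B cell receptor, made up most of the B cell sum. CD61, an integrin chain that pairs with CD41 or CD51, and CD9 together made up most of the megakaryocyte sum. The mean scores of CD79b, CD61 and CD9 were 1.03, 0.934 and 0.806, against 1.04 for CD16/32. CD41 was at 0.192. When thinned, both B220 and CD79b were highest in the Ery classes. Ery B had 0.393 and 1.44, against 0.233 and 0.910 in Lymphoid B, so the pair was not particular to lymphoid cells here.

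GMP-A and GMP-B differed little. A protein was called where its difference had 1 sign in all 4 letters, exceeded its SD over letters and was at least 0.1 score units, and by this rule 0 of 35 proteins were called (0%). Differences were taken within 10 of the cell groups, each with 10 or more cells of either class. Without the size limit, 13 proteins had 1 sign in every letter (37.1%), 10 of them with a higher score in GMP-A (28.6%) and 3 with a lower score (8.57%).

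At full depth the largest mean difference was that of CD16/32, with 0.0936, 0.0497, 0.0513 and 0.0863 in letters A to D, a mean of 0.0702 ± 0.0230 (SD, n = 4 letters). CD34 differed by 0.0684, 0.0508, 0.0644 and 0.0559, or 0.0598 ± 0.00799. CD61 (0.0612 ± 0.0175), the adhesion molecule CD54 or ICAM-1 (0.0538 ± 0.00376), CD11b (0.0479 ± 0.0186) and Gr1 (0.0437 ± 0.0209) also had 1 sign in every letter. The small cell groups A2 and B2 gave 0.0938 and 0.131 for CD11b, against 0.0218 to 0.0465 in the groups numbered 1 or 3. For Gr1 they gave 0.123 and -0.0658, and A3 gave 0.000115. CD62L differed by 0.0650 ± 0.0493, but in letter B by -0.00380. That value rested on the small cell group B2 with 15 and 12 cells (-0.108), while B1 and B3 gave 0.0254 and 0.0716.

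These differences were smaller at equal depth. Thinned, they were 0.0410 ± 0.0181 for CD16/32, 0.0507 ± 0.0192 for CD62L, 0.0245 ± 0.0180 for CD34 and 0.0190 ± 0.0265 for Gr1, which then had mixed signs. Thinned values were 0.0436 ± 0.0117 for CD61, 0.0195 ± 0.00601 for CD54 and 0.0175 ± 0.00893 for CD11b. CD27, at -0.0183 ± 0.0324 and of mixed sign at full depth, was then -0.0472 ± 0.0167 with 1 sign in all letters. Most thinned proteins with 1 sign in every letter were lower on GMP-A, whereas at full depth most were higher. The thinned difference largest in size was that of CD79b (-0.0528 ± 0.00727). CD9 (-0.0509 ± 0.0189), MHCII (-0.0504 ± 0.0116) and CD38 (-0.0479 ± 0.0147) were also lower in every letter, and no protein was called. A GMP-A cell drawn at random had a higher CD16/32 score than a random GMP-B cell with a probability of 0.591 (0.553 when thinned), where 0.5 is no difference. Over the 35 proteins this probability ran from 0.458 (CD79b, 0.403 when thinned) to 0.646 (CD44, 0.571 when thinned).

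Against the non-GMP classes GMP-A differed in 16 of 35 proteins (45.7%), 9 higher (25.7%) and 7 lower (20%). All 5 of the class's markers were among the 9, with a median difference of 0.544 against -0.0138 over all 35 proteins. CD62L was higher by 0.790, 0.782, 0.606 and 0.802 in letters A to D (0.745 ± 0.0932), and CD16/32 by 0.677, 0.723, 0.722 and 0.754 (0.719 ± 0.0317). CD27 (0.544 ± 0.136) and CD34 (0.345 ± 0.0795) differed less in letters A and B than in C and D, and A and B alone include cell groups numbered 2 or 4. In numbers 1 and 3 alone they were 0.637 ± 0.0248 and 0.392 ± 0.0288. Within letter A, CD27 was then 0.748 in A1 and 0.490 in A3, against 0.665 and 0.653 in C1 and C3. CD34 was 0.486 in A1 and 0.287 in A3, against 0.448 and 0.361 in C1 and C3. Gr1 was higher by 0.172 ± 0.00544, the smallest difference of the 5 markers and the most even between letter means. Its single cell groups were less even, from 0.0521 in B2 to 0.284 in B4. Gr1 was 0.178 in A1 and 0.231 in A3, but 0.231 in D1 and 0.115 in D3.

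The other called proteins that were higher on GMP-A were CD61 (0.606 ± 0.108), CD54 (0.322 ± 0.0890), CD11b (0.151 ± 0.0315) and CD48 (0.138 ± 0.0332). In the myeloid and dendritic list 2 of 5 measured proteins were called higher, CD11b and Gr1, and 0 lower. F4/80, CD11c and CD86, antigens of macrophages and dendritic cells, differed by -0.0138, -0.0258 and 0.00124. In the megakaryocyte and platelet list of 5, CD61 was higher, CD150 and CD62P were lower, and CD41 (-0.0169 ± 0.0652) and the tetraspanin CD9 (0.0670 ± 0.119) had mixed signs. In numbers 1 and 3 alone CD9 was called higher, and CD41 was 0.0443 ± 0.00734. The single cell groups of CD41 varied more, with 0.120 in A1 and -0.0242 in A3, against 0.0455 in C1 and 0.0225 in C3. The calls of CD54 and CD48 were lost when all cell groups were weighted equally, and that of CD11b when cells were thinned to 300 counts.

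The 7 lower proteins lay in the stem, erythroid, lymphoid and megakaryocyte lists. CD105 (endoglin, a TGF-β co-receptor of stem and early erythroid cells) was -0.639 ± 0.0967, with -0.538, -0.574, -0.725 and -0.719 by letter. Ter119 was -0.361 ± 0.133 and CD150 -0.256 ± 0.116. In numbers 1 and 3 alone, averaged within letter, CD105 was -0.715 ± 0.00799 and Ter119 -0.477 ± 0.00584. The single cell groups were less even. CD105 was -0.874 in A1 and -0.542 in A3, against -0.752 in C1 and -0.698 in C3. Ter119 was -0.658 in A1 and -0.291 in A3, against -0.503 in C1 and -0.459 in C3. In groups of numbers 2 and 4 Ter119 was -0.0638 in A2 and 0.0970 in B4. The call of Ter119 was lost with equal weight to all cell groups. CD79b was -0.215 ± 0.0369, Sca-1 -0.189 ± 0.0187, CD117 -0.122 ± 0.0062 and CD62P -0.107 ± 0.0216, and the calls of CD117 and CD62P were lost when scores were centred on the lineage antibodies. In the stem and multipotent list 4 of 7 measured proteins were called lower (Sca-1, CD150, CD117 and CD105) and 2 higher (CD34 and CD48). Both erythroid proteins, CD105 and Ter119, were lower. In the lymphoid list 1 of 7 was lower, CD79b, and 0 were higher, but when thinned CD79b was highest in the Ery classes.

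The CD150 difference, too, moved with the sorted CD150 fraction. It was -0.580 to -0.656 in the 4 cell groups numbered 2 or 4 and -0.0851 to -0.172 in those numbered 1 or 3, and the mean was -0.126 when numbers 1 and 3 alone were used. The groups of numbers 2 and 4 that were used held only 12 to 15 GMP-A cells each. Over all cells, a GMP-A cell exceeded a random non-GMP cell in CD16/32 with a probability of 0.961 (0.945 when thinned), in CD62L of 0.927, in CD61 of 0.917, in CD27 of 0.864, in CD34 of 0.845 and in Gr1 of 0.658. Of the pair of antigens that defines GMPs by flow cytometry, CD16/32 separated single cells more than CD34 did. With all cells thinned to 1000 counts, all 16 proteins stayed called.

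**Figure D3:**
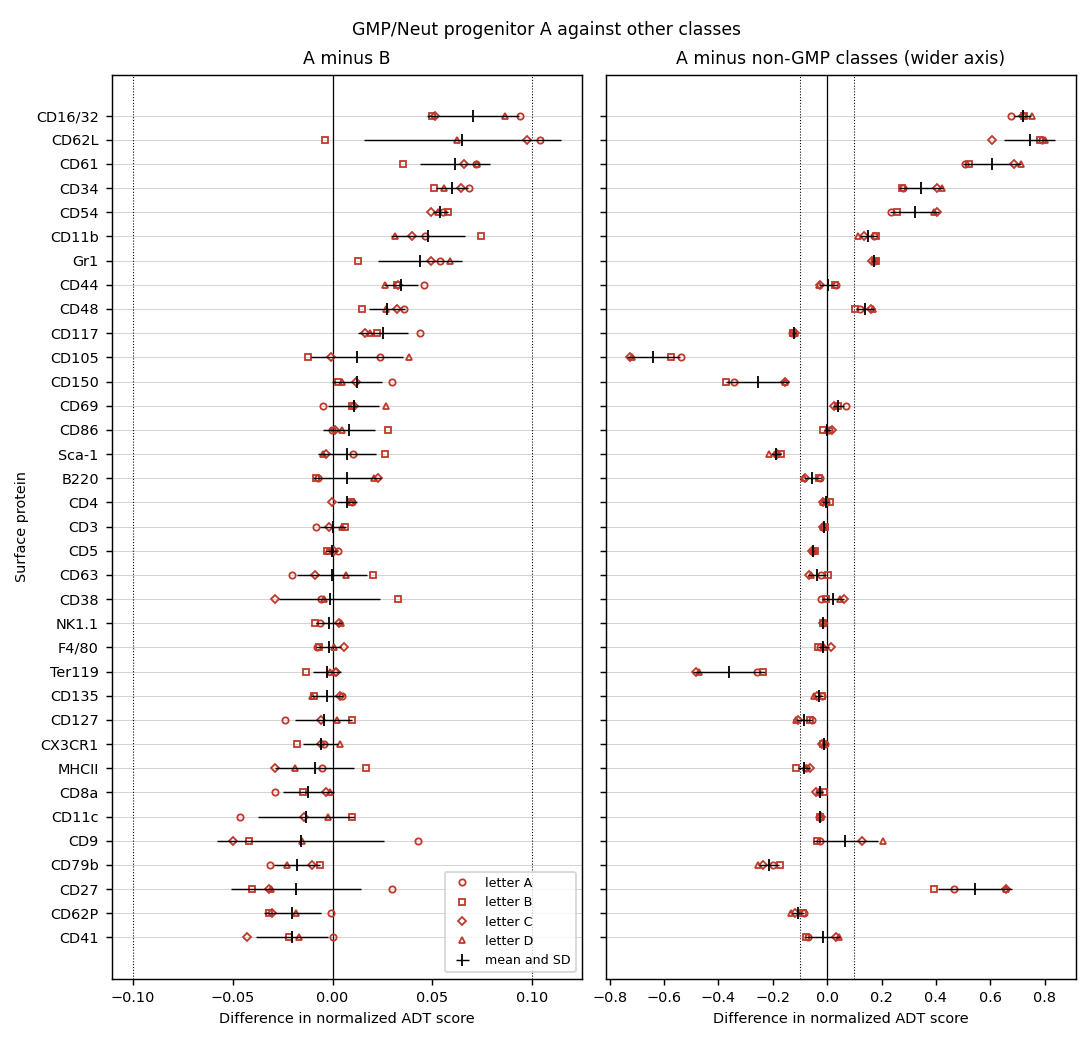
Difference in normalized ADT score (horizontal axis, no unit) of GMP-A minus GMP-B (left) and GMP-A minus the non-GMP classes (right, on a wider axis) for 35 proteins (vertical axis). Open symbols are the 4 letters, bars the mean and SD over letters, and dotted lines mark 0.1 in either direction. No mean passes the dotted lines on the left, and 9 proteins do on the high side and 7 on the low side on the right.

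Read together on single cells, CD34 and CD16/32 were both present on most GMP-A cells. A cell was counted as above background where its score passed the 95th percentile of the 4 Ery classes of the same letter, which carry little of either protein. Of GMP-A cells, 94.6% were above background for CD16/32, 74.4% for CD34 and 69.4% for both (95% exact interval 67.7% to 70.9%, counting error only). The share for both was 63.6% in GMP-B, 51.3% in Lymphoid C and 35.9% in MPP C, at median depths of 2027.5, 2808 and 1331 ADT counts. In the Ery classes it was 0.212%, at 1838 counts, but there the limit itself held each single share to 5.03%. Thinned to 1000 counts the share for both was 59.5% (57.7% to 61.2%) in GMP-A and 56.8% (54.8% to 58.8%) in GMP-B. In GMP-A, 25.3% of cells passed for CD16/32 alone and 5.08% for CD34 alone.

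GMP-A made up 9.55% of Young cells (1185 of 12403) and 20.2% of Old cells (2062 of 10199). The Young share was 5.71%, 5.88%, 14.8% and 14.5% in letters A to D, and the Old share was 21.2%, 21.0%, 21.3% and 17.0%. The Old share was higher in every letter, but by far more in A and B than in C and D. Of GMP-A cells 97.9% lay in numbers 1 and 3, and within these the share was 13.5% in Young and 25.1% in Old. Relative to GMP-B the class did not move to the same degree, and GMP-A was 55.2% of Young and 56.8% of Old cells of both GMP classes. By letter this was 52.6%, 54.7%, 56.3% and 56.0% in Young and 56.6%, 57.9%, 58.3% and 54.0% in Old. All these shares depend on the sorted fractions and how they were pooled, and their intervals cover counting error only.

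Age was compared within each letter as Old minus Young. Of 35 proteins 3 were called on GMP-A (8.57%), with MHCII higher in Old (2.86%) and CD38 and CD86 lower (5.71%). In all, 18 proteins had 1 sign in every letter (51.4%), 11 with the higher mean in Old (31.4%) and 7 with the lower (20%).

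CD38, an NAD-consuming surface enzyme of stem and immune cells, had Young means of 0.521, 0.542, 0.471 and 0.451 in letters A to D and Old means of 0.295, 0.312, 0.374 and 0.330. All Young means lay above all Old means. The difference was -0.226, -0.229, -0.0973 and -0.121, or -0.168 ± 0.0691. It was -0.148 ± 0.0741 when thinned.

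CD86, a costimulatory ligand of antigen-presenting cells, had Young means of 0.355, 0.358, 0.349 and 0.324 and Old means of 0.242, 0.227, 0.243 and 0.212, again without overlap. The difference was even over letters, -0.116 ± 0.0108. Thinned to 1000 counts it was -0.0884 ± 0.0244 and fell short of the 0.1 limit. At full depth 82.9% of GMP-A cells had any CD86 count, with a median of 3.

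MHCII, which presents peptides to CD4 T cells, was higher in Old in each letter but mostly in A and B. Its Young means were 0.344, 0.374, 0.264 and 0.234 and its Old means 0.546, 0.558, 0.305 and 0.265, so that groups overlapped between letters. The differences were 0.201 and 0.183 in A and B and 0.0409 and 0.0302 in C and D, a mean of 0.114 ± 0.0909. Without letter A or without letter B, MHCII no longer passed the limit.

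Of the 5 markers, CD34 alone had 1 sign in all letters. Its Young means were 0.669, 0.620, 0.745 and 0.740 and its Old means 0.542, 0.559, 0.639 and 0.666, a difference of -0.0923 ± 0.0294 that stayed under 0.1. The share of cells above background for both CD34 and CD16/32 went the same way, with 75.9%, 71.9%, 76.5% and 82.6% in Young and 56.8%, 59.3%, 73.1% and 77.5% in Old. Thinned to 1000 counts the Young shares were 62.1%, 59.3%, 65.4% and 77.6% and the Old shares 46.0%, 46.9%, 62.7% and 73.0%. Gr1 differed by 0.0917 and 0.121 in letters A and B and by -0.00638 and -0.0301 in C and D, and CD27 by 0.0965, 0.103, -0.0260 and 0.000481. CD16/32 (0.0112 ± 0.0381) and CD62L (0.0151 ± 0.0359) had mixed signs.

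Among the gating proteins CD48 differed by -0.0124 and -0.0127 in letters A and B and by -0.0802 and -0.0728 in C and D. Sca-1 (0.0410 ± 0.0183), CD117 (0.0327 ± 0.0144) and CD41 (-0.0377 ± 0.0128) each had 1 sign in every letter and stayed within 0.1. CD105 split by letter set, CD135 was of mixed sign, and CD150 differed by -0.00354 ± 0.0106. The macrophage antigen F4/80 and the dendritic cell integrin CD11c were even over letters, F4/80 at -0.0913 ± 0.00264 and CD11c at 0.0703 ± 0.00908. Median ADT depth was higher in Young than in Old in letters C (3348 and 2615) and D (2537.5 and 2038) and lower in A (2418 and 2557) and B (2783.5 and 2992), and its part in the split was not tested.

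**Figure D4:**
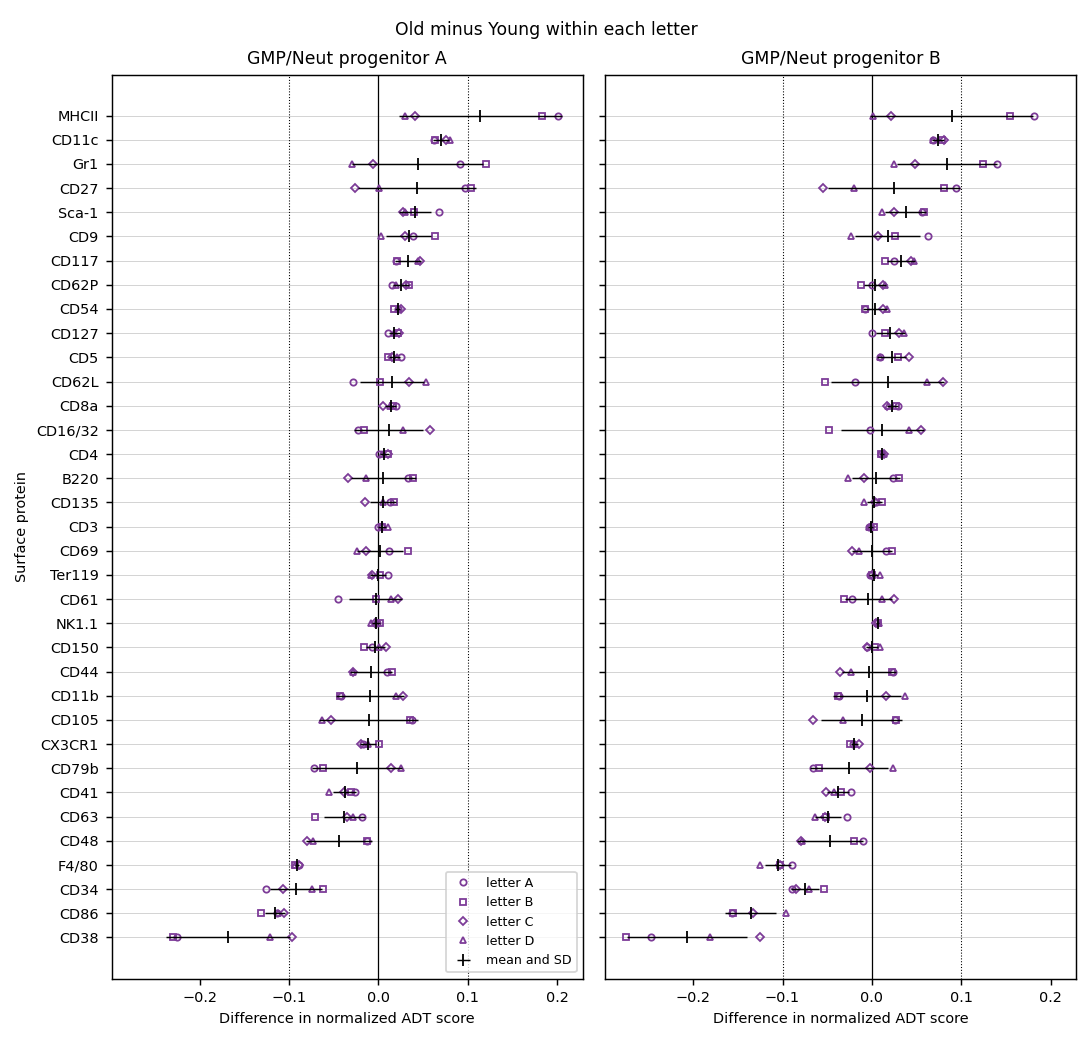
Old minus Young difference in normalized ADT score (horizontal axis, no unit) for 35 proteins (vertical axis) in GMP-A (left) and GMP-B (right). Open symbols are the 4 letters, bars the mean and SD over letters, and dotted lines mark 0.1 in either direction. CD38 and CD86 lie beyond the lower line in both panels, and for MHCII, Gr1 and CD27 letters A and B lie apart from C and D.

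GMP-B gave age differences of the same order. CD38 was -0.207 ± 0.0672, CD86 -0.135 ± 0.0286 and F4/80 -0.105 ± 0.0146, and these 3 were called (8.57%), while MHCII was 0.0896 ± 0.0912 and CD34 -0.0747 ± 0.0159. The difference between the classes in their age effect was called for 0 proteins (0%). The largest were Gr1 (-0.0401 ± 0.0247) and CD38 (0.0388 ± 0.0174), and the CD38 difference was nearer to 0 in GMP-A than in GMP-B in every letter. CD62L reached 0.0543 in letter B but was of mixed sign.

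The called age differences had the same sign in every class with enough cells. In the 16 classes that had at least 10 Young and 10 Old cells in every letter, the mean difference of CD38 and of CD86 was below 0 in 16 and that of MHCII and CD11c above 0 in 16. CD38 ran from -0.263 in MPP C to -0.0111 in Ery 4, and GMP-A ranked 9 from the lowest. For MHCII GMP-A ranked 2 from the lowest, just above GMP-B, in a range up to 0.349 in Lymphoid B. CD48 was below 0 in 16 of 16 classes, from -0.276 in MKP to -0.0445 in GMP-A, whose value was the smallest in size and close to GMP-B (-0.0469) and MPP B (-0.0488). CD34 was below 0 in 13 of the 16, with -0.192 in MPP B as the lowest.

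GMP-A cells were not uniform, and Gr1 ran from 0.501 at the 5th percentile of cells to 1.52 at the 95th. Ordered by Gr1 within letter and age into quartiles of 809 to 814 cells, mean Gr1 was 0.585, 0.802, 1.05 and 1.39. Along this order CD16/32 went up from 0.895 to 0.990, 1.11 and 1.18, and CD27 went down from 1.45 to 1.38, 1.28 and 1.16. CD34 went from 0.720 to 0.578, CD117 from 1.43 to 1.35 and CD11b from 0.101 to 0.221. In each letter CD16/32 was highest and CD27 lowest in the top Gr1 quartile.

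As top minus bottom quartile, CD16/32 was 0.281 ± 0.0331, CD27 -0.289 ± 0.0640, MHCII -0.183 ± 0.0340, CD38 -0.155 ± 0.0137, CD34 -0.144 ± 0.0326, CD41 -0.135 ± 0.0207, CD11b 0.123 ± 0.0481 and CD117 -0.0761 ± 0.00797 (SD over 4 letters). Thinned to 1000 counts, CD16/32 was 0.270 ± 0.0329, CD27 -0.315 ± 0.0650 and CD34 -0.139 ± 0.0276. The quartiles are ranges of 1 score and not cell types, and 33.7% of cells lay within 0.05 of a limit. Median ADT depth was 2596 to 2737.5 over the quartiles. Across all 3247 cells Spearman's rho was -0.47 for CD27 with Gr1 and 0.41 for Gr1 with CD16/32, over cells that share the denominator of their score, and GMP-B gave -0.49 and 0.39.

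A second order was taken by MHCII. CD38 went from 0.208 in the lowest quartile to 0.273, 0.404 and 0.639 in the highest, and CD86 from 0.220 to 0.365. As top minus bottom quartile, F4/80 was 0.155 ± 0.0767, CD11c 0.139 ± 0.0299, CD9 0.142 ± 0.0387, CD62P 0.123 ± 0.0204, CD41 0.120 ± 0.0210, Sca-1 0.0914 ± 0.00541, CD11b -0.0238 ± 0.0507, Gr1 -0.212 ± 0.0433, CD16/32 -0.176 ± 0.0335 and CD34 -0.148 ± 0.0229. Here 43.8% of cells lay within 0.05 of a limit, and median depth went from 2518 to 2797 ADT counts. Within 1 age and letter CD38 was thus higher on cells with more MHCII (top minus bottom 0.432 ± 0.0104), whereas from Young to Old MHCII was higher and CD38 lower in every letter.

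**Figure D5:**
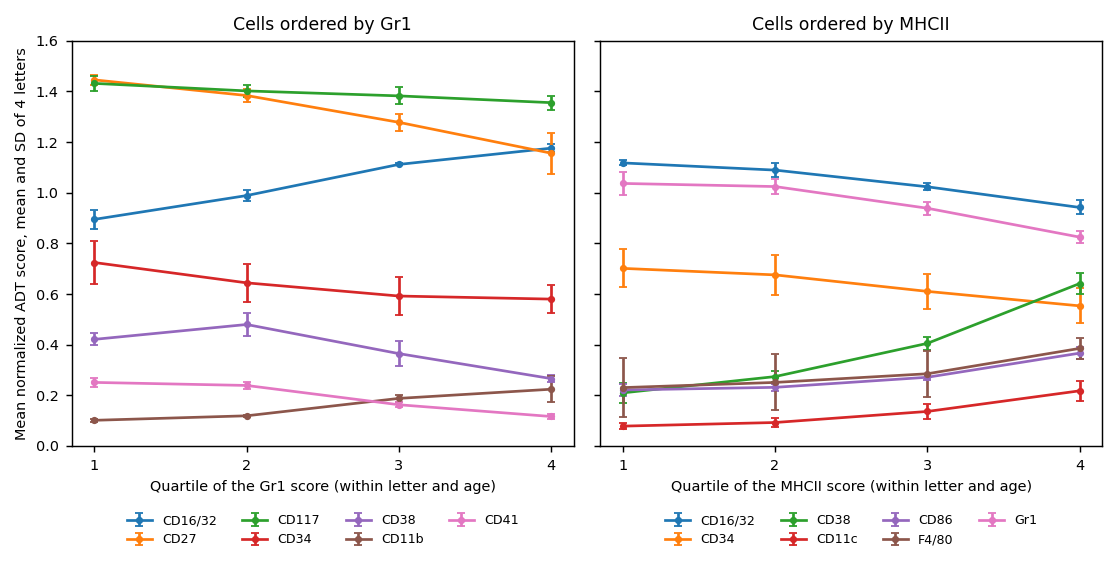
Mean normalized ADT score (vertical axis, no unit) in quartiles of GMP-A cells ordered within letter and age by Gr1 (left) or by MHCII (right). Points are means of 4 letters and bars the SD over letters. CD16/32 goes up and CD27 goes down from the lowest to the highest Gr1 quartile, and CD38 goes up from the lowest to the highest MHCII quartile.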

How the data were processed

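ADT counts, scores and annotations of FlkSwitch bone marrow cells were used. The submitters' notes name Cell Ranger and mm10. The deposited matrix holds raw ADT counts of 35 antibodies in 22790 cells, and the 188 cells absent from the deposited cell table were not used. Cells with few genes were dropped by the authors, as were cells negative for both CD117 ADT and Kit RNA. The score is as deposited by the authors, and rebuilding it from the counts gave the same values within 1e-09. The deposited percent of mitochondrial RNA reached 5.49%. RNA UMI counts, ages, classes, Egfp calls and cell group names are those the authors deposited.

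Since the cell group names correspond to none of the library titles, the 8 libraries were kept as 1 group and values were described without tests. Class differences were taken within cell groups of at least 10 cells of each class, averaged within letter, and given as mean and SD over 4 letters. Age differences were taken within letter. Shares carry exact Clopper-Pearson 95% intervals. In each comparison the markers, 7 gating proteins and the 6 largest called proteins per direction were to be named, and others (such as CD11b, CD62P, CD69, F4/80 and CD11c) were named after their values were seen. Members, lists and rules were chosen with earlier results of these data known. Thinning to 1000 counts, numbers 1 and 3 alone, the CD34 and CD16/32 background limit and the quartiles were chosen after seeing the data. The procedure was tried on GMP-B cells with random class labels, ages shuffled within letters and large known changes to a few antibody counts. That check used large changes only, so it does not bear on differences under 0.1. Python 3.11.15, numpy 2.4.6, pandas 2.3.3, scipy 1.17.1 and matplotlib 3.10.9 were used, with random seed 0. Protein sequences and antibody barcodes were not used here.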

Additional observations from a re-analysis of the deposited data

Results flagged for a closer look

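In 57 sets of 4 letters checked, 1 letter stood far from the other 3 in 5. The limit used gives about 1 in 20 by chance for 4 independent values. These letters did not behave as independent samples, so the count cannot be set against that rate. In letter A, CD27 was 0.0299 higher in GMP-A than in GMP-B, against -0.0309 to -0.0404 in the other letters. It rested on cell group A2 (0.0918, 15 and 10 cells), while A1 and A3 gave -0.00427 and 0.00216. In letter C, CD62L was 0.606 higher in GMP-A than in the non-GMP classes, against 0.782 to 0.802 elsewhere. Letters A and B alone include cell groups numbered 2 or 4, which gave 0.846 to 0.935 with 12 to 15 GMP-A cells each. There A1 and B1 gave 0.818 and 0.752 and A3 and B3 gave 0.602 and 0.594. C1 and C3 gave 0.626 and 0.586, and D1 and D3 gave 0.800 and 0.804. The age difference of GMP-A minus that of GMP-B was -0.0312 for CD105 in letter D and -0.00329 for Gr1 in letter B. The Old share of GMP-A was 17.0% in letter D, against 21.0% to 21.3% in the others.

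CD41 went opposite ways with age in GMP-A and in the non-GMP classes. It was -0.0377 as Old minus Young in GMP-A, below 0 in all 4 letters, and 0.107 in the non-GMP classes, above 0 in all 4 letters (0.214, 0.198, 0.0152 and 0.00217). The difference was not tested, and the non-GMP value pools classes whose shares differ by age. Class by class, CD41 was below 0 in 9 of the 16 classes with enough cells. It ran from -0.0596 in Lymphoid C to 0.126 in MKP, and GMP-A ranked 4 from the lowest.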

How the results depend on the processing

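No analysis paired by library or animal was possible because the labels put all libraries in 1 group and tie no cell to a library. Differences were taken within cell groups or letters of the annotation instead, and without that block the class comparisons gave 0 and 16 calls. For GMP-A against GMP-B, 4 proteins (CD54, CD61, CD16/32 and CD34) were called with a size limit of 0.05, and 0 under each other alternative and without any 1 letter (0 to 0). Against the non-GMP classes 13 to 20 proteins were called, and 15 to 16 without 1 letter. For Old against Young in GMP-A the 3 calls became 1 with log2 of counts per 1000 plus 1 and 1 with thinning to 300 counts (CD38, with MHCII and CD86 lost), 6 with a limit of 0.05, and 2 to 3 without 1 letter. They were 2 with thinning to 1000 counts (CD86 lost) and 2 with unweighted cell group means (MHCII lost), 3 with medians (MHCII lost, CD34 gained) and 4 with numbers 1 and 3 alone (CD34 gained). The age difference between the GMP classes gave 0 calls under every alternative run (0 to 0). Of the single values recomputed, 703 stayed the same, 87 moved, and 0 calls reversed. A value stayed the same if it changed by less than the SD over letters. With log2 of counts and with the limit of 0.05 it stayed the same if its call did. CD62P lost its call against the non-GMP classes under 4 planned settings and without letter D, and CD48 with medians and with unweighted class means. CD54, CD48 and Ter119 lost theirs over cell groups of equal weight, CD117 with centring on the lineage antibodies and CD11b with thinning to 300 counts. The share of GMP-A was 56.2% with both GMP classes as denominator, 19.2% in numbers 1 and 3, and 13.6% to 15.0% without 1 letter. The causes were not tested. CD135, CD150 and Ter119 lay near CD3, so small differences in them are not detectable at this depth.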
